A study of Mus musculus with 8 samples.

Results

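Astrocytes reach blood vessels with flattened processes called endfeet. A list of 9 astrocyte endfoot and gap junction genes was followed through the cells of the mouse dentate gyrus. The genes, chosen by name out of 31053 genes in the tables, were Aqp4, Gja1, Gjb6, Dmd, Dag1, Dtna, Mlc1, Hepacam and Gpr37l1. Their transcripts were counted in cells sorted for GFP from 8-week-old male Nestin-GFP mice, in which the Nestin promoter drives the fluorescent protein, so the cells are those that carry this signal and not a census of the tissue. Control mice had a sham craniotomy and TBI mice a unilateral controlled cortical impact, both 15 days before the dentate gyri were taken. The labels name 4 animals per condition, the study's methods name more, and the cells of each condition were pooled into 1 library, so there was no biological replicate and no test between conditions. Intervals given below are 95% counting intervals and cover counting error only.

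After filtering, 3049 cells of the Control library and 5036 cells of the TBI library remained, with a median of 6928 and 5663 transcripts (unique molecular identifiers, UMIs) per cell and 24629521 and 31503415 UMIs in all. The libraries shared 3 cell barcodes. Cells were sorted into classes by marker genes: stem-like astroglia (87 Control and 41 TBI cells), mature astroglia (723 and 702), oligodendrocytes (574 and 1118), mural cells (262 and 620) and endothelial cells (264 and 571), beside radial glia-like (RG-like), neural stem cell (NSC), neuron-like, oligodendrocyte precursor (OPC) and microglia classes. Since 492 mature astroglia had fewer than 2000 UMIs, cells above and below that depth are shown apart, and 144 of the 1425 cells lay between 1800 and 2200. The 2 groups differed in more than depth. The nuclear RNA Malat1 made up a median of 0.14% of UMIs in those of fewer UMIs and 14.8% in the others. Mitochondrial genes made up 13.5% and 8.0%. Those of fewer UMIs were 172 of the 723 Control and 320 of the 702 TBI cells. Mature astroglia made up 23.7% of the Control and 13.9% of the TBI cells.

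The classes carried their defining markers, a few of which are given here. These genes were in the lists that named the classes, so the levels describe the naming and do not test it. In CPM, the UMIs of a gene per 1000000 UMIs of a class, the glutamate transporter Slc1a2 stood at 12237 in mature astroglia of 2000 or more UMIs and at 161 in mural cells. The pericyte gene Vtn stood at 13590 CPM in mural cells and Cldn5 at 9822 in endothelial cells, each under 500 in mature astroglia. Stem-like astroglia held more Hopx (1525 CPM) than mature astroglia of 2000 or more UMIs (613) and less S100b (18.4 against 428).

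At the endfoot membrane the water channel aquaporin-4 (Aqp4) is held in place by the dystrophin-associated complex: dystrophin (Dmd) and alpha-dystrobrevin (Dtna) lie under the membrane, and dystroglycan (Dag1) spans it and binds laminins and agrin of the vessel's basal lamina. Connexin 43 (Gja1) and connexin 30 (Gjb6) form the gap junctions that couple astrocytes. Mlc1 and its adhesion partner GlialCAM (Hepacam) sit at the contacts between astrocyte processes, and Gpr37l1 is a glial receptor linked to prosaposin.

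By level, 7 of the 9 genes were highest in an astroglial class, and Dmd and Dag1 were highest in mural cells. Levels are sums over the cells of a library, with Malat1 left out of the total. Aqp4, Gja1, Gjb6, Hepacam and Gpr37l1 were highest in mature astroglia of 2000 or more UMIs, and Dtna and Mlc1 in stem-like astroglia, although Dtna was higher in mature astroglia under 1 of the 10 other settings run. Oligodendrocytes held a large amount of Hepacam and some Dtna, OPCs held Gpr37l1, and endothelial cells held Gja1 and Dag1 at a lower level. None of the 9 genes was 1.5-fold apart between TBI and Control in mature astroglia of 2000 or more UMIs or in stem-like astroglia.

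**Figure D1:**
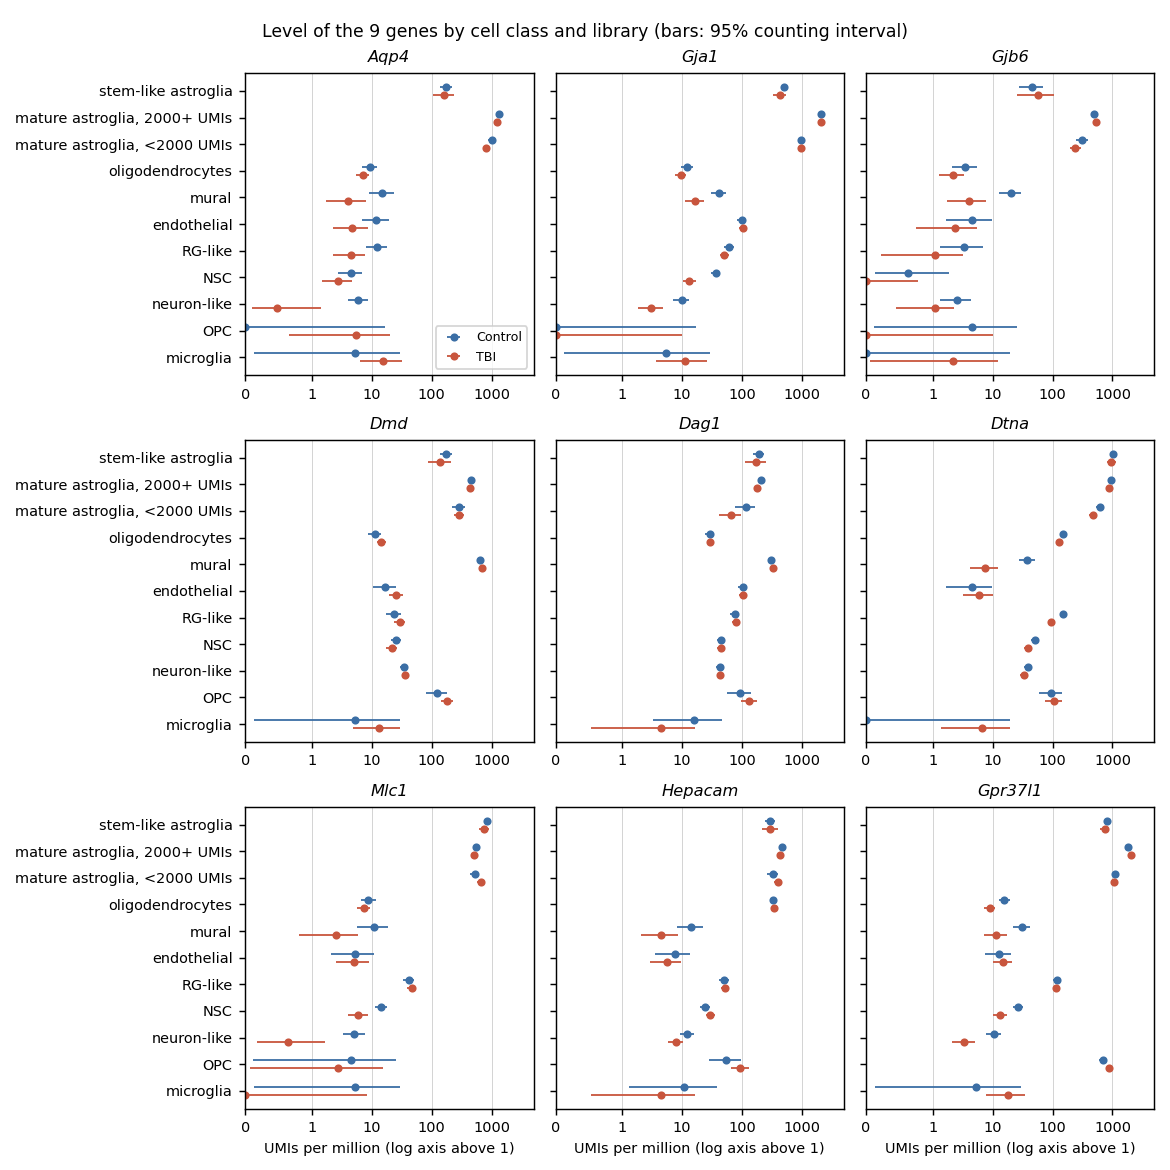
Level of each of the 9 genes (x axis, CPM, logarithmic above 1) in 11 cell classes (y axis), with the Control library in blue and the TBI library in red and bars for the 95% counting interval. Aqp4, Gja1, Gjb6 and Mlc1 separate the 3 astroglial classes from the rest, whereas Dmd and Dag1 are highest in mural cells and Hepacam is nearly as high in oligodendrocytes as in astroglia.

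Aqp4, the water channel, was higher in the 3 astroglial classes than in each of the 8 others. In mature astroglia of 2000 or more UMIs it stood at 1335 CPM in the Control library (interval 1287 to 1384) and at 1224.5 in the TBI library (1164 to 1287). Mature astroglia of fewer UMIs held 999 and 814. Stem-like astroglia held 172 and 163, so the level in mature astroglia of 2000 or more UMIs was 7.78-fold higher in the Control and 7.51-fold higher in the TBI library. The next classes in order, microglia, mural cells, oligodendrocytes and RG-like cells, lay between 3.99 and 15.6 CPM, and their order could not be told from the difference between libraries.

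The connexins followed the same order of astroglial classes. Gja1 stood at 2055 CPM in the Control and 2091 in the TBI library in mature astroglia of 2000 or more UMIs, at 967 and 945 in those of fewer UMIs, and at 505 and 420 in stem-like astroglia. Gjb6 stood at 483 and 535, at 314 and 241, and at 45.7 and 56.4 in the same classes. Stem-like astroglia thus held both connexins at a lower level than mature astroglia in each library, 4.07-fold and 4.98-fold for Gja1 and 10.6-fold and 9.48-fold for Gjb6. Of the classes outside astroglia Gja1 was highest in endothelial cells, with 99.4 CPM in the Control and 103 in the TBI library, and these UMIs came from 60 of 264 and 142 of 571 cells. RG-like cells held Gja1 at 60.8 and 50.6 and Gjb6 at 3.35 and 1.11. In OPCs no UMI of Gja1 was seen in either library.

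The connexin pair shared its order of the 3 astroglial classes, which Aqp4, Dmd, Hepacam and Gpr37l1 also had, but not that of the other classes. The sequences before the RefSeq starts of both connexin genes are shown for reading beside these levels. Each is the 250 bases upstream of the start, 5′ to 3′ on the gene's strand, at chr10:56377050-56377299 (plus strand) for Gja1 and chr14:57133612-57133861 (minus strand) for Gjb6 in GRCm38.p6. Capitals would mark a match to TTGGCA (a nuclear factor I half-site), to the palindromic nuclear factor I site that can overlap it, to ACAATGG (SOX) or to GGGCGG (GC box), searched on both strands.
Gja1: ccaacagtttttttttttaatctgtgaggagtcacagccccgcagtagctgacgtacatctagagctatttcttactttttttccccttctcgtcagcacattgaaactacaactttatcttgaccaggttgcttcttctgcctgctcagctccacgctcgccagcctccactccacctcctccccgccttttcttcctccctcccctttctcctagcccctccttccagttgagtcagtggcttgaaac
Gjb6: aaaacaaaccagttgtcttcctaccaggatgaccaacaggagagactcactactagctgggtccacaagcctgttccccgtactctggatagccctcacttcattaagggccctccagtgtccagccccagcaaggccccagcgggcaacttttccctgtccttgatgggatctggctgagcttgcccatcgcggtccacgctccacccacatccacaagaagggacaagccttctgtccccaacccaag
Neither window holds any of these letters. Of 32851 upstream windows of this length, 12.3% hold TTGGCA, 0.0365% the palindromic site, 3.02% ACAATGG and 32.7% GGGCGG.

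Mlc1 and Hepacam, the membrane protein and its adhesion partner, parted in their classes. Mlc1 was highest in stem-like astroglia, at 844 CPM in the Control (interval 760 to 934) and 746 in the TBI library (618 to 893), against 550 and 497 in mature astroglia of 2000 or more UMIs. That is the reverse of Aqp4 and the connexins, which were lower in stem-like astroglia. Mature astroglia of fewer UMIs held Mlc1 at 517 and 652, and the TBI value lay inside the TBI interval of stem-like astroglia. Hepacam stood at 293 and 295 in stem-like astroglia and at 455 and 433 in mature astroglia of 2000 or more UMIs. In oligodendrocytes Hepacam stood at 333 and 335, while Mlc1 stood at 8.77 and 7.37. Hepacam UMIs came from 473 of 574 oligodendrocytes in the Control and 912 of 1118 in the TBI library, and the 5 cells with most of them held 4.74% and 1.93% of the total. Hepacam without Mlc1 was thus spread over the oligodendrocytes, and its level was 75.4% and 78.9% of that in all mature astroglia.

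Gpr37l1, the glial receptor, stood at 1831 CPM in the Control and 2051 in the TBI library in mature astroglia of 2000 or more UMIs and at 826 and 740 in stem-like astroglia. OPCs held 705 and 862, a range that overlapped that of stem-like astroglia, in 28 and 55 cells. RG-like cells held 117 and 115, and oligodendrocytes 15.8 and 8.95. Of the 8 classes outside astroglia OPCs thus had the highest level, and oligodendrocytes, the cells OPCs give rise to, were near the level seen in neuron-like cells (10.6 and 3.35).

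By class, Dmd, which encodes dystrophin, was highest in mural cells. It stood there at 643 CPM in the Control (interval 598 to 689.8) and 698 in the TBI library (661 to 735). Mature astroglia of 2000 or more UMIs held 457 and 427, and stem-like astroglia 176 and 138. Within mural cells, pericytes, the cells that wrap capillaries, held 851 and 761, smooth muscle cells 432 and 539, and fibroblast-like cells, of which there were 12 and 19, held 24.6 and 39.0. The intervals of pericytes and smooth muscle cells did not overlap in either library. The 2 pericyte clusters differed in immediate early genes, whose summed level was 984 CPM in one and 32289 in the other. Dmd stood at 910.02 CPM in the first, led by Gm30075, and at 639.97 in the second, led by Gm26802, over both libraries, and whether the early genes bear on this was not tested. The second cluster held 44 of 185 Control and 259 of 539 TBI pericytes.

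The RefSeq set used here lists a start of Dmd for the long dystrophin and an inner start, 2099425 bases downstream. From the inner start the short products such as Dp71 of glia are made. Any other start of the locus was not examined. In the GENCODE annotation all 3 coding transcripts, 1 from the outer and 2 from the inner start, end within 10 kb of the gene's end, so counts made at the 3′ end do not separate them. The 250 bases before each start are shown because the counts do not say which start the transcripts of mural cells or astroglia came from: chrX:82948620-82948869 for the outer and chrX:85048045-85048294 for the inner start, both on the plus strand in GRCm38.p6, with capitals for the letters listed above.
Dmd outer start: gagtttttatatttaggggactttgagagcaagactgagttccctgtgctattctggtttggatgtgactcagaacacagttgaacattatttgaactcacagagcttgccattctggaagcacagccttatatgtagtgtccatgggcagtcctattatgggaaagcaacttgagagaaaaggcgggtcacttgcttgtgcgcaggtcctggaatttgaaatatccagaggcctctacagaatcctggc
Dmd inner start: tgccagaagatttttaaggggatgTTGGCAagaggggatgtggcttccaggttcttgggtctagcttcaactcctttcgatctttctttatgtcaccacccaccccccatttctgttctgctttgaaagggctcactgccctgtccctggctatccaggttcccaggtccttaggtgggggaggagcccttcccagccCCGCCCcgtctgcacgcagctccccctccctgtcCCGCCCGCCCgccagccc
The inner window holds TTGGCA once, 226 bases before the start, and GGGCGG on the other strand 3 times, at 52, 18 and 14 bases, and has a GC content of 60% against 45.2% in the outer window. The outer window holds none of the 4 motifs.

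Dag1, the membrane-spanning link to the basal lamina, was present in vessel cells, astroglia and neuron-like cells alike, at unequal levels. It stood at 299 CPM in the Control and 328 in the TBI library in mural cells, at 205 and 180 in mature astroglia of 2000 or more UMIs and at 190 and 169 in stem-like astroglia. The libraries of these 2 astroglial classes overlapped in range. Endothelial cells held 102 and 103, RG-like cells 74.7 and 77.6 and neuron-like cells 42.9 and 43.1. Pericytes held 353 and 333.

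Dtna, which encodes alpha-dystrobrevin, was low in pericytes, which held the most Dmd of the mural cells. It stood at 1004 CPM in the Control and 959 in the TBI library in stem-like astroglia, at 956 and 883 in mature astroglia of 2000 or more UMIs, and at 9.32 and 4.36 in pericytes. Smooth muscle cells held more than pericytes, 75.2 and 21.6, from 39 and 7 UMIs in 22 of 65 and 4 of 62 cells. The 95% intervals of stem-like and mature astroglia overlapped. Oligodendrocytes held 152 and 130 and RG-like cells 150 and 94.9. Across the 11 classes in both libraries (22 points, which share libraries and depth) the log2 level of Dmd correlated with that of Dag1 at r = 0.80 and with that of Dtna at r = 0.54, and that of Aqp4 with Gjb6 at r = 0.93 and with Dag1 at r = 0.34.

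Within mature astroglia the 9 genes differed in their pattern. The class held 3 clusters, formed without these genes and named here by their first gene: a cluster led by Agt, Ednrb and F3 (495 cells, median 4950 UMIs), one led by Aldh1a1 (561 cells, 1699 UMIs), and one led by Syne1 and Atp13a4 (369 cells, 2383 UMIs). The nuclear RNA Malat1 made up a median of 15.1%, 0.0614% and 19.4% of UMIs in the 3 clusters, and mitochondrial genes 6.26%, 12.3% and 14.1%. Because all genes of these cells bear on such clusters, the levels are a description.

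Dmd and Dtna were lowest in the Aldh1a1 cluster and highest in the Syne1 cluster. Dmd stood at 70.0 CPM in the Control and 86.2 in the TBI library in the Aldh1a1 cluster, at 446 and 464 in the Agt cluster, and at 877 and 801 in the Syne1 cluster. The Syne1 values of Dmd were above those of pericytes, 851 and 761, but the counting intervals overlapped in each library. Dtna stood at 156 and 178, at 937 and 946, and at 1829.7 and 1515 in the same clusters. The order was the order of the Malat1 share. Mlc1 ran the other way, from 720 and 654 in the Aldh1a1 cluster through 578 and 556 in the Agt cluster to 252 and 178 in the Syne1 cluster. The part of RNA content in these differences was not tested.

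Aqp4, Gja1, Gjb6, Dag1, Hepacam and Gpr37l1 were highest in the Agt cluster in both libraries. Aqp4 stood there at 1659.5 CPM in the Control and 1438 in the TBI library, against 1193 and 912 in the Aldh1a1 cluster and 510 and 379 in the Syne1 cluster. Gja1, itself among the first 10 genes of the Agt cluster by fold, stood at 2802 and 2608, against 1053 and 820 and 836 and 931. Gpr37l1 stood at 2444.5 and 2539, against 1269 and 1069 and 588 and 653. Unlike Aqp4 and Gpr37l1, Gjb6 was higher in the Syne1 cluster (413 and 274) than in the Aldh1a1 cluster (256 and 192), and for Gja1 the order of these clusters differed between the libraries.

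**Figure D2:**
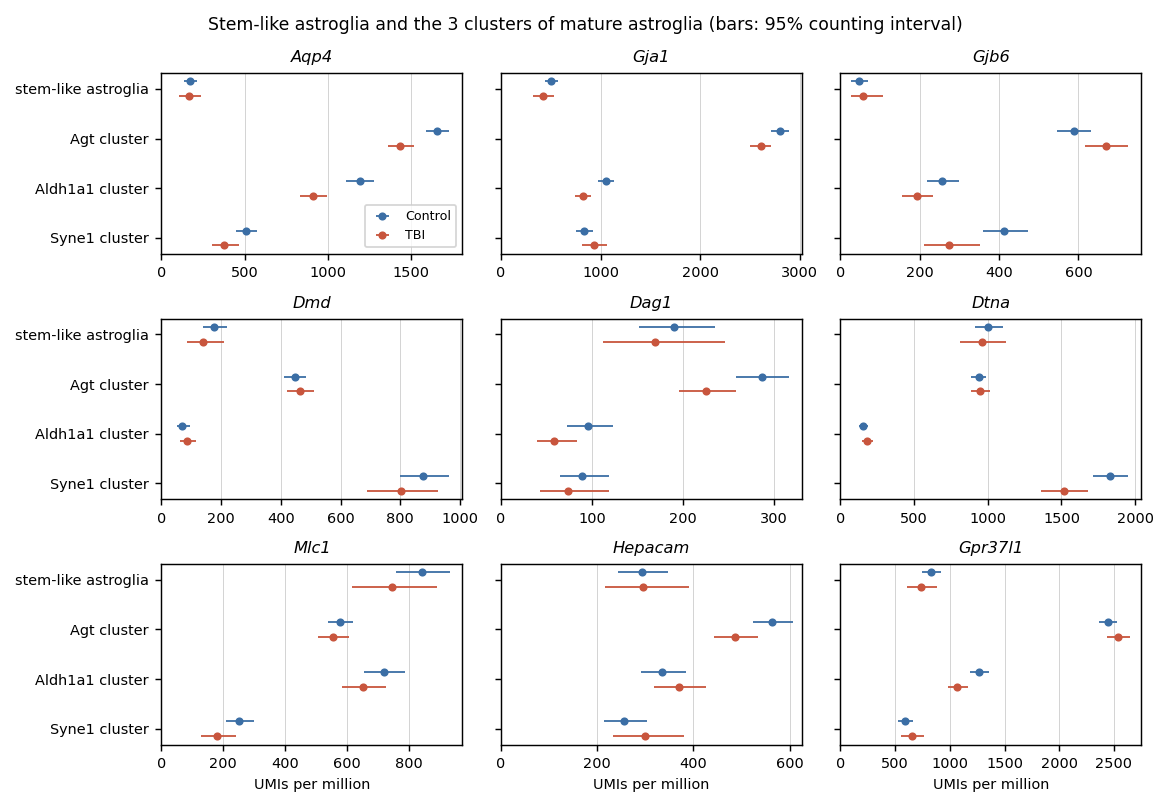
Level of the 9 genes (x axis, CPM, linear from 0) in stem-like astroglia and in the 3 clusters of mature astroglia, with the Control library in blue, the TBI library in red and bars for the 95% counting interval. Dmd and Dtna are highest in the Syne1 cluster and lowest in the Aldh1a1 cluster, whereas Aqp4, Gja1 and Gpr37l1 peak in the Agt cluster and Mlc1 in stem-like astroglia.

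Between single cells the genes were loosely tied. In cells of 2000 or more UMIs thinned to 2000, the 36 pairs of the 9 genes had a median correlation of 0.0499 in the Agt cluster of the Control library and of 0.0373 in that of the TBI library, with a highest value of 0.22 and 0.19. In the Aldh1a1 cluster Gja1 and Gpr37l1 reached 0.62 and 0.55, and Aqp4 and Gpr37l1 0.49 and 0.42. Over all mature astroglia Dtna correlated with the Malat1 share at 0.56 in the Control and 0.41 in the TBI library, and within the Agt cluster at 0.08 and -0.06. These values describe sparse counts of cells that share a library.

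The shares of cells with a UMI were compared at a fixed depth. Thinned to 2000 UMIs, 75.6% of 933 mature astroglia held Aqp4 (exact 95% interval 72.7% to 78.3%), 83.5% Gja1, 52.1% Gjb6 and 47.5% Dmd, and without thinning, at a median of 3786 UMIs, 85.3%, 89.2%, 70.6% and 66.1%. Neuron-like cells, which should lack Aqp4 and the connexins, showed 0.228%, 0.685% and 0.152% of 1313 cells for Aqp4, Gja1 and Gjb6 at the same thinning, and without it, over 1334 cells at a median of 8577.5 UMIs, 1.12%, 2.70% and 0.75%. Of 113 stem-like astroglia, 20.4% held Aqp4 and 8.85% Gjb6, both above the neuron-like share, and 72.6% held Mlc1 and 78.8% Dtna. Without thinning, over 128 cells at a median of 4934.5 UMIs, these shares were 43.0%, 16.4%, 87.5% and 89.8%. Of 848 mural cells, 66.6% held Dmd and 44.7% Dag1, and 82.3% and 64.4% of 882 cells without thinning. Neuron-like cells held Dmd in 6.32%, Dag1 in 7.69% and Dtna in 7.01% of cells, more than the share for Aqp4, and without thinning in 23.8%, 28.6% and 21.4%.

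**Figure D3:**
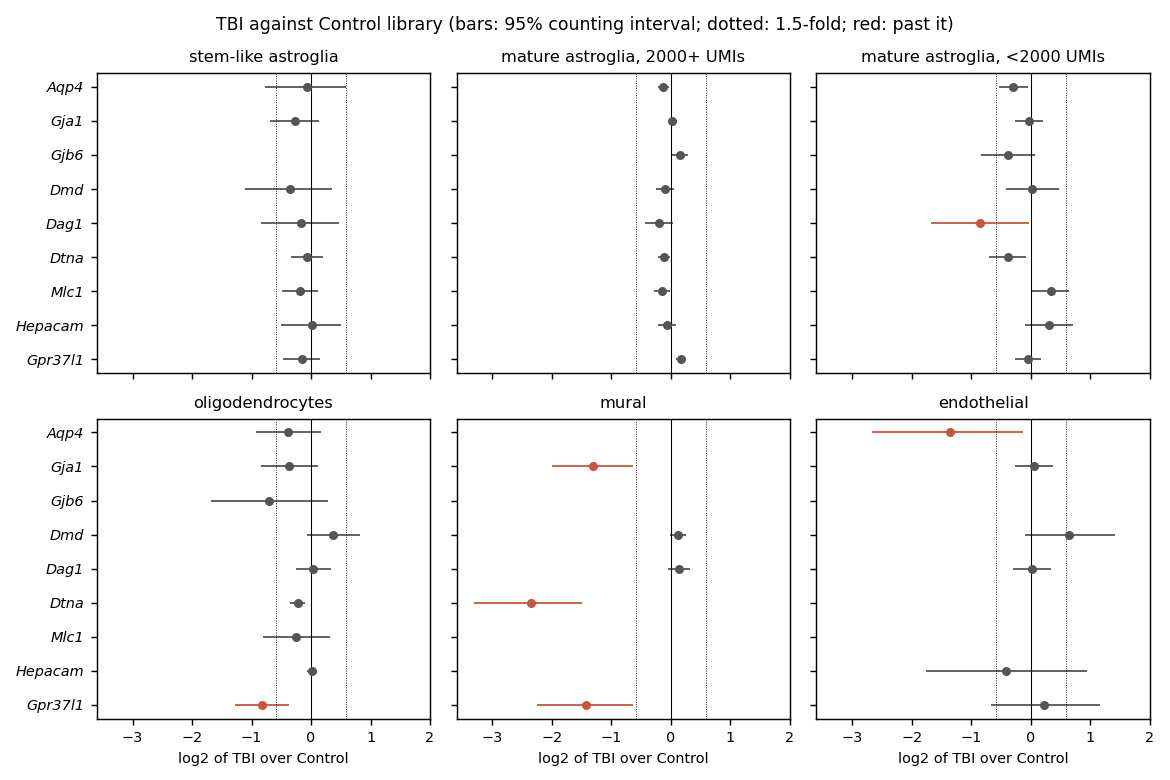
Log2 ratio of the TBI to the Control level (x axis) of the 9 genes (y axis) in 6 cell classes, with bars for the 95% counting interval, dotted lines at 1.5-fold and red for ratios past it whose interval leaves out 1. Genes with fewer than 10 UMIs in either library have no point. All points of stem-like astroglia and of mature astroglia of 2000 or more UMIs lie inside the dotted lines, and the 6 red points lie to the left, each at a gene with 90 or fewer UMIs per library in its class.

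The comparison of TBI with Control asked how far the level of these genes in each class differed between the injured and the sham library. A gene needed 10 UMIs in each library and was counted as past the fold when it was at least 1.5-fold apart with an interval that left out 1. In mature astroglia of 2000 or more UMIs 0 of 9 genes were past the fold, where 3.88% of 9701 genes were. Their median log2 ratio was -0.10, beside 0.04 for all genes. The most positive ratio was that of Gpr37l1, 0.16 (0.09 to 0.24), and the most negative that of Dag1, -0.19 (-0.43 to 0.04). Gja1 was at 0.03 (-0.04 to 0.09) and Aqp4 at -0.12 (-0.21 to -0.04). In this class the intervals therefore left out a 1.5-fold difference between the libraries for each of the 9 genes. The class held 551 Control and 382 TBI cells and mixed the 3 clusters unequally. The Agt cluster, where Gpr37l1 and Gja1 were highest, held 250 and 245 cells, and 492 of its 495 cells had 2000 or more UMIs. By cluster Gpr37l1 was at 0.05 (Agt), -0.25 (Aldh1a1) and 0.15 (Syne1). The part of this mix in the ratios of the class was not tested.

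In stem-like astroglia 0 of 8 genes were past the fold, against 5.80% of 3291 genes, and their median log2 ratio was -0.16, beside 0.09 for all genes. The intervals were wide there, from -0.34 to 0.20 for Dtna and from -1.11 to 0.35 for Dmd, and Gjb6 had 9 UMIs in the TBI library. In mature astroglia of fewer UMIs 1 of 9 was past the fold, against 4.64% of 4033 genes. This was Dag1, with 29 UMIs in the Control and 25 in the TBI library and a log2 ratio of -0.85 (-1.68 to -0.02). Its call ended when ratios were centred on the median of all genes, when CPM was averaged over cells or when 50 UMIs were required. Mlc1 was the gene furthest the other way in that class, at 0.33 (0.02 to 0.65).

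By cluster, Aqp4 was lower in the TBI library with an interval below 0 in each of the 3 clusters. Dag1 and Mlc1 also had ratios below 0 in each. The interval of Dag1 in the Syne1 cluster (-0.26, -1.16 to 0.57) and those of Mlc1 in all 3 reached above 0. The ratios of the other genes differed in sign between clusters. In the Agt cluster 0 of 9 genes were past the fold (3.73% of 8890 genes), with Aqp4 at -0.21 (-0.31 to -0.11), Gja1 at -0.10 (-0.18 to -0.03), Dag1 at -0.35 (-0.60 to -0.10) and Gjb6 at 0.19 (0.03 to 0.34). In the Aldh1a1 cluster it was 1 of 9 (4.62% of 5372 genes), Dag1 at -0.70 (-1.38 to -0.04). Aqp4 stood at -0.39, Gja1 at -0.36 and Gjb6 at -0.42 there, with intervals below 0. In the Syne1 cluster it was 1 of 9 (6.25% of 4302 genes), Gjb6 at -0.59 (-1.02 to -0.18), and Aqp4 was at -0.43 (-0.80 to -0.07). The TBI library held more of the mature astroglia in the Aldh1a1 cluster (316 of 702 cells, against 245 of 723) and fewer in the Syne1 cluster (141 against 228). TBI cells were also shallower in each cluster. Median UMIs in the Control and TBI library were 5989 and 4170 (Agt), 2131 and 1354.5 (Aldh1a1) and 2751.5 and 1966 (Syne1). No cluster ratio was computed at equal depth.

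In oligodendrocytes, mural and endothelial cells the genes with the highest levels were less than 1.5-fold apart between the libraries. In oligodendrocytes Hepacam had a log2 ratio of 0.01 (-0.07 to 0.10) and Dtna of -0.23 (-0.36 to -0.10). In mural cells Dmd was at 0.12 (-0.01 to 0.25) and Dag1 at 0.14 (-0.05 to 0.33). In endothelial cells Gja1 was at 0.05 (-0.26 to 0.37) and Dag1 at 0.02 (-0.29 to 0.34). With endothelial cells thinned to 2000 UMIs, however, Gja1 was past the fold and higher in TBI, at 0.63 (0.07 to 1.21), and was seen in 9.96% of 251 Control and 16.02% of 543 TBI cells. In RG-like cells, for which no ratio was computed, Dtna stood at 150 CPM in the Control (134 to 167) and 94.9 in the TBI library (83.7 to 107), intervals that did not overlap. It was not the only gene lower in TBI. Aqp4 stood at 12.4 and 4.43 in RG-like cells. In NSC cells Gja1 stood at 36.0 and 13.2, Mlc1 at 14.4 and 5.97 and Gpr37l1 at 26.7 and 13.4. Dmd, Dag1, Mlc1 and Hepacam in RG-like cells and Hepacam in NSC cells were higher in TBI. The NSC cluster led by Eomes, lower in Gja1 than that led by Cdc20, held 151 of 320 Control and 275 of 449 TBI cells. Its part in these values was not tested. The share of all genes past the fold was not computed in these 2 classes, so none of these differences can be read against it.

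Some genes of few UMIs were lower in the TBI library in several of these classes. In mural cells 3 of 5 genes were past the fold, all lower in TBI, against 11.0% of 9474 genes: Gja1 at -1.31 (-1.99 to -0.64), Dtna at -2.35 (-3.30 to -1.49) and Gpr37l1 at -1.42 (-2.24 to -0.63). Gja1 stood at 40.7 CPM in the Control and 16.5 in the TBI library, and 5 of 262 Control cells held 77.6% of its 49 UMIs. For Gpr37l1, 5 Control cells held 81.1% of 37 UMIs, and the top TBI cell held 65.2% of 23. Dtna stood at 38.3 and 7.48, with 39 of its 46 Control and 7 of its 15 TBI UMIs in smooth muscle cells. Within smooth muscle cells these UMIs came from 22 of 65 Control and 4 of 62 TBI cells, so Dtna was lower in TBI there too. Smooth muscle cells were 65 of 262 mural cells in the Control and 62 of 620 in the TBI library. Without cells above 10% mitochondrial UMIs Gja1 was at -2.49 and Gpr37l1 had too few UMIs for a ratio, and with cells thinned to 2000 UMIs 0 genes were past the fold. In pericytes taken alone 0 of 4 genes were past the fold (5.17% of 8059 genes), and Dmd was at -0.16 (-0.31 to -0.01) and Dag1 at -0.08 (-0.31 to 0.15), the opposite sign to all mural cells. The Gm26802 cluster, lower in Dmd, was a larger part of the TBI pericytes (259 of 539) than of the Control ones (44 of 185). Its part in these ratios was not tested. Dtna had too few UMIs in pericytes for a ratio.

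In oligodendrocytes 1 of 9 was past the fold (3.27% of 10758 genes), Gpr37l1 at -0.82 (-1.27 to -0.37), where 5 cells held 48.9% of the Control and 54.4% of the TBI UMIs. Its ratio was -1.75 (-2.51 to -1.02) with doublets removed, and -0.51 and not past the fold without cells above 10% mitochondrial UMIs. In endothelial cells 1 of 6 was past it (3.55% of 9150 genes), Aqp4 at -1.36 (-2.67 to -0.14) from 16 and 10 UMIs, a call that ended with doublets or cells above 10% mitochondrial UMIs removed. The summed level of 10 astroglial markers was lower in the TBI library in these classes and in neuron-like cells: it was 730 CPM in mural cells of the Control and 279 in those of the TBI library, 431 and 359 in oligodendrocytes, 330 and 203 in endothelial cells and 793 and 670 in neuron-like cells, with 0 of the 10 markers at 0 in any of these. In microglia it was higher in the TBI library, 248 and 356, with 1 marker at 0. The highest marker made up 311 CPM of the sum in mural and 453 in neuron-like cells of the Control library. Not every marker was lower: F3 in mural and S100b in endothelial cells were higher in the TBI library. Aqp4 was at 5.95 and 0.479 in neuron-like cells and at 5.28 and 15.6 in microglia. The part of such astroglial RNA in the lower ratios was not tested.

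Partner genes from 6 lists, 44 genes in all, placed these levels among their pathways. Of the 44, 11 were highest in mural cells, 9 in oligodendrocytes, 9 in astroglia (8 of them in mature astroglia of 2000 or more UMIs and 1 in stem-like astroglia) and the others elsewhere. Levels below are over both libraries.

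The list of connexins and pannexin held 9 other genes, most of them outside astroglia. Gjc3 (894 CPM) and Gjb1 (217) were highest in oligodendrocytes, and Gjc1 (824) and Gja4 (454) in mural cells. Mature astroglia of 2000 or more UMIs held each of these 4 at 7.54 or less, and Gjb2, another astrocyte connexin, at 19.7. Gjc3 was shared with OPCs at 772. Fibroblast-like cells held Gjb2 at 230 and the member Gjb6 at 419 in the Control and 90.9 in the TBI library, from 17 and 7 UMIs. These cells numbered 12 and 19.

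Of 10 other genes of the dystrophin complex 0 were highest in astroglia. The dystrophin relative utrophin (Utrn) stood at 878 CPM in endothelial and 697 in mural cells against 106 in mature astroglia of 2000 or more UMIs, where Dmd stood at 446. Beta-1-syntrophin (Sntb1) was highest in mural cells at 85.7. The dystroglycan ligands were highest in vessel cells, 4 of 7 in mural and 3 in endothelial cells, with Lamb2 at 335 and Lama2 at 223 in mural cells and Agrn at 181 in endothelial cells. Mature astroglia of 2000 or more UMIs held Lama2 at 119 and Agrn at 76.2.

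Of 9 channels and transporters of endfeet, 7 were highest in an astroglial class. The bicarbonate transporter Slc4a4 stood at 1716 CPM in mature astroglia of 2000 or more UMIs and the sodium pump subunit Atp1b2 at 1078. The potassium channel Kcnj10 was highest in stem-like astroglia at 323 and also present in oligodendrocytes at 289.9. Gpr37, the relative of Gpr37l1, stood at 894 in oligodendrocytes against 69.6 in mature astroglia, the reverse of Gpr37l1. The prosaposin gene Psap was in every class and highest in microglia at 1229.6.

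In mature astroglia of 2000 or more UMIs 4 of 28 partner genes were past the fold, 3 of them higher and 1 lower in the TBI library, where 3.88% of all genes were past it. Sntb2 (log2 ratio 1.22, interval 0.35 to 2.11) and Gjc3 (1.48, 0.25 to 2.78) were among those higher, and each was under 50 CPM in both libraries. Beta-2-syntrophin (Sntb2) was past the fold in oligodendrocytes (1.02) and mural cells (0.75) too, and in endothelial cells it was at -0.18. In pericytes taken alone, however, 0 of 7 dystrophin complex genes tested were past the fold and higher in TBI. Smooth muscle cells were 65 of 262 mural cells in the Control and 62 of 620 in the TBI library. The part of this mix in the mural ratio of Sntb2 was not tested. The alternative processing settings were not run for the ratios of partner genes. In stem-like astroglia 0 of 10 and in mature astroglia of fewer UMIs 0 of 15 partner genes were past the fold. Of all genes, 5.80% and 4.64% were. In oligodendrocytes it was 2 of 27 (3.27% of all genes), in mural cells 7 of 29 (11.0%) and in endothelial cells 3 of 25 (3.55%).

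The 2 other genes most like each of the 9 in level over the 11 classes and 2 libraries, out of 13118 genes, were named by Pearson correlation of log2 levels over 22 points. They were 2900052N01Rik (0.97) and Cyp4f15 (0.96) for Aqp4, Fam107a (0.97) and Fgd6 (0.96) for Gja1, and Aifm3 (0.96) and Cyp4f15 (0.95) for Gjb6. They were Prrx1 (0.95) and Gstt1 (0.94) for Dmd, Xrn1 (0.92) and Snx21 (0.91) for Dag1, and Galnt16 (0.96) and Haghl (0.96) for Dtna. For Mlc1 they were Ntsr2 (0.97) and Acsbg1 (0.97), both markers used to name the astroglia, for Hepacam Cmtm5 (0.98) and Fbxo2 (0.96), and for Gpr37l1 Cspg5 (0.98) and Rfx4 (0.97). Aqp4 and Gjb6 shared 1 of them.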

How the data were processed

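Single-cell libraries of GFP-sorted dentate gyrus cells were made with a 3′ kit (10x Genomics v3), 1 pooled library for each condition. The deposited tables hold counts of UMIs per gene and barcode, which the authors made with Cell Ranger 3.0.2 on GRCm38 (mm10) with no normalization, and each table was assigned to its condition by cell barcodes listed in the study's supplement. The 9 genes and all lists were chosen with earlier results of these data known.

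From these counts, cells with at least 200 genes and within 3 median absolute deviations of RNA content were kept (8085). They were integrated and clustered in Seurat 5.3.0 (2000 variable genes, 20 components, resolution 3.0; lineage cells again with 16 components at 0.8), without the 9 genes, the 44 partner genes and Malat1. Clusters were named from 10 marker lists where at least 3 markers were detected and no low-depth or conflicting leading genes stood against the name. The NSC class includes a cluster led by Eomes. Scrublet in scanpy 1.11.5 marked 37 Control and 108 TBI cells as doublets, which were kept in the values given and removed as an alternative.

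UMIs were summed per class and library and divided by all UMIs except Malat1. Intervals were exact Poisson (levels), Clopper-Pearson (shares, and the conditional ratio of counts). No p-value was computed, as the design has 1 library per condition. The ratio code was tested on simulated data. Named were all 9 genes, the 2 most like each in pattern (genes with at least 100 UMIs), and partner genes highest in a class or past the fold. Gene positions are from GENCODE vM21 and upstream sequences from RefSeq (GRCm38.p6). These were taken for 7 of the 9 genes, and Aqp4 and Dtna, both on chromosome 18, were left out. Alternatives changed the cell filters, clustering, denominator, averaging, thinning and UMI minimum. Those on single clusters, pericytes and the unnamed oligodendrocyte-like cluster were added after seeing the data. Some marker and partner genes are not reported here.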

Additional observations from a re-analysis of the deposited data

How the results depend on the processing

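The count of genes highest in an astroglial class was 7 in each of the 11 settings in which it was computed, with Dmd and Dag1 highest in mural cells each time. Dtna was highest in mature instead of stem-like astroglia in 1 of them. The count past 1.5-fold in stem-like astroglia was 0 throughout. In mature astroglia of 2000 or more UMIs it was 0 under the other alternatives and 1 where the Aldh1a1 or the Syne1 cluster stood in their place, a choice made after seeing the data. In mature astroglia of fewer UMIs the 1 gene past it became 0 with CPM averaged over cells, with ratios centred on the median gene, or with 50 UMIs required, and without cells above 10% mitochondrial UMIs it was Dmd (log2 ratio 1.00) in place of Dag1. In oligodendrocytes 1 became 3 with doublets removed or with CPM averaged over cells, 2 with cells thinned to 2000 UMIs, and 0 without cells above 10% mitochondrial UMIs. In mural cells 3 became 0 with thinned cells, with 50 UMIs required, or in pericytes alone, 2 with doublets or cells above 10% mitochondrial UMIs removed, and 4, with Aqp4 added, without integration or at resolution 1.5. In endothelial cells 1 became 0 with doublets removed, without cells above 10% mitochondrial UMIs, or with 50 UMIs required, and with thinned cells it was Gja1 (0.63, higher in TBI) in place of Aqp4. The causes were not tested, beyond that fewer of the 46 ratios met the UMI minimum: 33 with 50 UMIs required, 27 with thinned cells, 41 with doublets removed and 41 without cells above 10% mitochondrial UMIs, so a lost call there can be a gene no longer compared. No ratio past the fold changed direction. The median log2 ratio of all genes lay between -0.07 and 0.09 in the 6 classes. No paired analysis was possible because each condition is 1 pooled library, and for the same reason no replicate could be left out. Depth limits Gjb6, Dmd, Aqp4 and Dag1 in stem-like astroglia most, with 9 to 27 UMIs each in the TBI library.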

Other observations

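RG-like and NSC cells, the early steps of the lineage, held these genes at low but unequal levels. RG-like cells held Dtna at 150 CPM (UMIs per 1000000) in the Control and 94.9 in the TBI library (95% counting intervals 134 to 167 and 83.7 to 107), Mlc1 at 41.2 and 46.2, Hepacam at 50.7 and 52.1 and Aqp4 at 12.4 and 4.43. Of the 3 NSC clusters, the one led by the mitotic gene Cdc20 held Gja1 at 71.8 in the Control and 32.9 in the TBI library and Mlc1 at 26.4 and 13.2. The one led by Eomes, a gene of intermediate progenitors, held Gja1 at 15.9 and 6.85 and Mlc1 at 3.83 and 1.52, below the Cdc20 cluster in each library. Hepacam stood at 30.8 and 31.0 in the Cdc20 cluster and at 24.6 and 28.6 in the Eomes cluster. Stem-like astroglia, with Mlc1 at 818 over both libraries and Aqp4 at 169, stood between these and mature astroglia of 2000 or more UMIs in Aqp4 (1295) and above both in Mlc1 (531).

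Oligodendrocyte clusters also differed. Hepacam stood at 376 CPM in the cluster led by Il33 and at 374 in a cluster of 219 cells led by Ptgds. It stood at 282 in the cluster led by Mal and at 120.1 in that led by Sec14l5, whose cells had a median of 36.9% mitochondrial UMIs. Another cluster led by Ptgds, of 233 cells, was not measured apart. Dtna stood at 225 in the Sec14l5 cluster, 144 in the Mal cluster and 138 in the Il33 cluster.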
